A study of Mus musculus with 48 samples.

Results

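The genes described are the neurotrophins and their receptors Bdnf, Ntf3, Ntrk2, Ntrk3 and Ngfr, taken by their symbol in the platform annotation. Of these 5 genes, 3 had a probe set among the 12422 analysed: Bdnf, Ntrk2 and Ntrk3, with 1 probe set each. Ntf3 and Ngfr are named by no probe set in the annotation used here and are not analysed here. Transcript levels were measured on 48 one-colour oligonucleotide arrays of mouse hippocampus and amygdala. The arms are coded NH, CS and FC in the labels and are read here, from the title of the series and not from a definition, as naive home cage, exposure to the conditioned stimulus alone, and fear conditioning. Hippocampus had 10 NH, 8 CS and 8 FC arrays, and amygdala had 10 NH, 6 CS and 6 FC arrays. No agent, genotype, strain, sex, age or time after the session is given in the sources used here. The labels name no animal behind an array, and all p-values therefore speak only of the spread among arrays, which may be technical. Amygdala arrays carry longer numbers than hippocampus arrays. In 8 of 22 the number can be read as the batch digit followed by the numbers of 2 hippocampus arrays of the same arm, and in 1 more of 1 such array, so these amygdala arrays may pool animals that also gave hippocampus arrays, which the labels used here do not state.

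Neurotrophins are secreted growth factors that support the survival of neurons and the strengthening of synapses. Each Trk receptor is a tyrosine kinase that prefers particular ligands: Bdnf, brain-derived neurotrophic factor, binds TrkB, the product of Ntrk2, and neurotrophin 3, the product of Ntf3, binds TrkC, the product of Ntrk3. Ngfr encodes p75, a receptor that binds every neurotrophin and their uncleaved precursors. Bdnf transcription rises with neuronal activity, and Bdnf acting through TrkB is known to be needed for long-term memory in hippocampus and amygdala.

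A pair of regulatory sequences is shown first, since Fos, an activity-induced gene, is the measure of scale for the results on Bdnf. The reference table holds 7 start sites for Bdnf, 2 for Ntf3, and 1 each for Ntrk2, Ngfr and Fos, and none for Ntrk3. Windows of 250 bases before each start site (RefSeq, GRCm38.p6) were searched on both strands for TCACGTCA, a form of the cAMP response element, for the palindrome TGACGTCA, for their shared core CGTCA, and for the E-box CACGTG. The third Bdnf window, chr2:109692186-109692435 on the plus strand, was the only Bdnf window with a match. It holds TCACGTCA, which 0.35% of all 32851 windows of this length hold, beginning 38 bases before the start site, at -38. The Fos window, chr12:85473640-85473889 on the plus strand, holds the core at 2 places and neither longer motif, and 17.8% of all windows hold the core. The palindrome occurs in 1.55% of windows and in none of these genes' windows, and the E-box in 6.02% and in 1 of the Ntf3 windows. Capitals mark the matched letters, of TCACGTCA in Bdnf and of the core read on the other strand in Fos.
Bdnf: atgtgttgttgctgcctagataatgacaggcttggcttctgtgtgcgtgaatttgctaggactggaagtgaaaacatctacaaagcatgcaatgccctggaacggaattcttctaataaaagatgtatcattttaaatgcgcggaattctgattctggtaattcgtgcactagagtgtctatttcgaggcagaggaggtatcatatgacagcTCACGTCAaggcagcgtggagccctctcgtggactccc
Fos: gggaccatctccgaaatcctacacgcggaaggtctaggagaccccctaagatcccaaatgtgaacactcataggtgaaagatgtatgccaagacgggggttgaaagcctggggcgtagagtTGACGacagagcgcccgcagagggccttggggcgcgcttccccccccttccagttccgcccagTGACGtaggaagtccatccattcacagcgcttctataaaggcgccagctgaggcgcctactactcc
These matches describe letters and not use of a site. Which Bdnf start sites or receptor isoforms the probe sets detect is not given in the sources used here.

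Levels are given as log2 intensity, where 1 unit doubles the signal. Arm differences were fitted in limma with the processing batch as a fixed block, and p-values carry a Benjamini-Hochberg adjustment over every probe set tested, with a threshold of 0.05. In each tissue only 4 NH arrays were processed beside CS or FC arrays, so differences from NH rest on those 4, and CS minus NH and FC minus NH share them. Fos rose in CS over NH by 0.98 ± 0.149 (SE) in hippocampus (limma, adjusted p = 0.00433) and by 1.15 ± 0.149 in amygdala (adjusted p = 0.000444). Of 12 probe sets of immediate early genes tested in amygdala, 7 rose in FC over NH, and these were the only 7 of all probe sets to pass there. In hippocampus 1 of 11 such probe sets, that of Fos, passed in CS minus NH and in FC minus NH. There 10 of 11 were positive, with medians of 0.20 and 0.25. Junb, another activity-induced gene, differed there by 0.28 ± 0.0818 and 0.34 ± 0.0808, and neither passed (limma, adjusted p = 0.573 for FC minus NH). In amygdala Junb differed by 0.53 ± 0.0573 in FC minus NH (limma, adjusted p = 7.45e-06). By rank within the array, 6 of 10 hippocampal neuron markers stood higher in all hippocampus arrays than in all amygdala arrays, and 2 stood lower. Of 5 amygdala markers, 2 were higher in every amygdala array and 1 was lower. Such a separation held for 2.04% of all probe sets with hippocampus higher and for 2.34% with amygdala higher. Across the 9 lists of cell type and region markers, 0 of 66 probe sets tested in hippocampus and 0 of 54 in amygdala passed in any comparison in limma. At an unadjusted p below 0.05 there were 2, 3, 1 and 2 of 66 in hippocampus for CS minus NH, FC minus NH, FC minus CS and the mean of CS and FC minus NH. Of all probe sets, 1.45%, 2.27%, 0.765% and 2.07% had such a p there. In amygdala there were 5, 9, 1 and 11 of 54, where 3.92%, 5.15%, 1.23% and 5.85% of all probe sets had such a p. The list medians lay between -0.09 and 0.26, the highest being the striatal list in amygdala CS minus NH, which rests on 2 probe sets of 1 gene. The oligodendrocyte list was at 0.20 in amygdala FC minus NH, with 7 of 8 probe sets positive. In hippocampus 3 arrays stood apart in the log2 ratio of the 3' to the 5' Gapdh control probe set, a sign of RNA quality. These were CS replicates 105 and 109 and NH replicate 100, and values without them are given with the results.

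No difference between arms in Bdnf, Ntrk2 or Ntrk3 exceeded the spread between arrays in either tissue. Of 24 differences within tissues, 0 passed over all probe sets and 0 had an unadjusted p below 0.05 in limma. The lowest adjusted p was 0.8615 and the lowest unadjusted p 0.143. Of all probe sets, the share with an unadjusted p below 0.05 in hippocampus was 1.45% for CS minus NH, 2.27% for FC minus NH, 0.765% for FC minus CS and 2.07% for the mean of CS and FC minus NH. In amygdala these shares were 3.92%, 5.15%, 1.23% and 5.85%. The 95% intervals of all 24 lay between a 0.814-fold and a 1.30-fold change. These intervals allow modest changes in either direction, and in the comparisons with NH none reaches the rise of Fos. For FC minus CS Fos itself differed by 0.11 ± 0.112 in hippocampus and 0.38 ± 0.132 in amygdala (limma, adjusted p = 0.999 or higher for both). In hippocampus its 95% interval crossed 0, so Fos gives no scale there. In amygdala the interval ran from 0.112 to 0.657. All 12 immediate early probe sets tested there were positive, 6 of them with an unadjusted p below 0.05. The log2 interval of Ntrk2 in that comparison reached 0.296 and so overlapped that of Fos.

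Bdnf, the ligand, was measured well up the range of each array. In hippocampus its level in NH ran from 8.80 to 9.33 with a median of 9.0, in CS from 8.79 to 9.30 with a median of 9.15, and in FC from 8.71 to 9.48 with a median of 9.05. The 3 arms overlapped over nearly their whole range, and FC held both the lowest and the highest array. The NH mean was 9.02 ± 0.187 (SD, n = 10), that of CS was 9.10 ± 0.198 (SD, n = 8) and that of FC 9.07 ± 0.227 (SD, n = 8), and no neighbours in that order differed beyond their spread.

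In hippocampus Bdnf differed between CS and NH by -0.06 ± 0.107 (SE; limma, adjusted p = 0.9999), a fold of 0.961 with a 95% interval from 0.825 to 1.12. In that comparison 0 of the 2 members tested passed, against 0.0134% of all probe sets, which was Fos alone. FC minus NH was -0.08 ± 0.106, with a fold interval from 0.814 to 1.10 (0 of 2 members passed, 0.0134% of all). FC minus CS was -0.02 ± 0.0807, with a fold interval from 0.878 to 1.10 (0 of 2 members, 0% of all). The mean of CS and FC minus NH was -0.07 ± 0.0985 (0 of 2 members, 0.0134% of all).

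The batches did not share a direction for hippocampal Bdnf. In batch 4, with 3 CS, 2 FC and 2 NH arrays, CS minus NH was -0.19 and FC minus NH was -0.32. In batch 6, with 1 CS, 2 FC and 2 NH arrays, CS minus NH was 0.08 and FC minus NH was 0.17. NH replicate 100 of batch 4, at 9.33, was the highest NH array. Without it CS minus NH was 0.08 and FC minus NH was 0.05.

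In amygdala Bdnf ran from 7.65 to 8.00 in NH with a median of 7.93, from 7.51 to 8.15 in CS with a median of 7.86, and from 7.44 to 7.91 in FC with a median of 7.80. The arms overlapped again, and the means fell in the order NH, CS and FC: 7.88 ± 0.132 (SD, n = 10), 7.82 ± 0.232 (SD, n = 6) and 7.73 ± 0.198 (SD, n = 6). The 6 NH arrays of batch 1, at 7.81 to 8.00, had no CS or FC array in their batch. Within batches Bdnf differed between CS and NH by 0.10 ± 0.0908, with a fold interval from 0.940 to 1.22 (limma, adjusted p = 0.942), where 0 of 3 members passed against 0.0134% of all probe sets. FC minus NH was -0.02 ± 0.0891, with a fold interval from 0.866 to 1.12, where 0 of 3 members passed against 0.0939% of all.

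The lowest p of any member within a tissue was that of Bdnf in amygdala FC minus CS, at -0.12 ± 0.0805 (limma, unadjusted p = 0.143, adjusted p = 0.9995; 0 of 3 members passed, 0% of all). In batch 2, with 4 FC and 3 CS arrays, the difference was -0.21. In batch 3 it was 0.0023. FC replicate 21927, at 7.44, was the lowest amygdala array, and without it FC minus CS was -0.05 and FC minus NH was 0.05. The mean of CS and FC minus NH was 0.04 ± 0.0805 (0 of 3 members, 0.0939% of all).

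**Figure D1:**
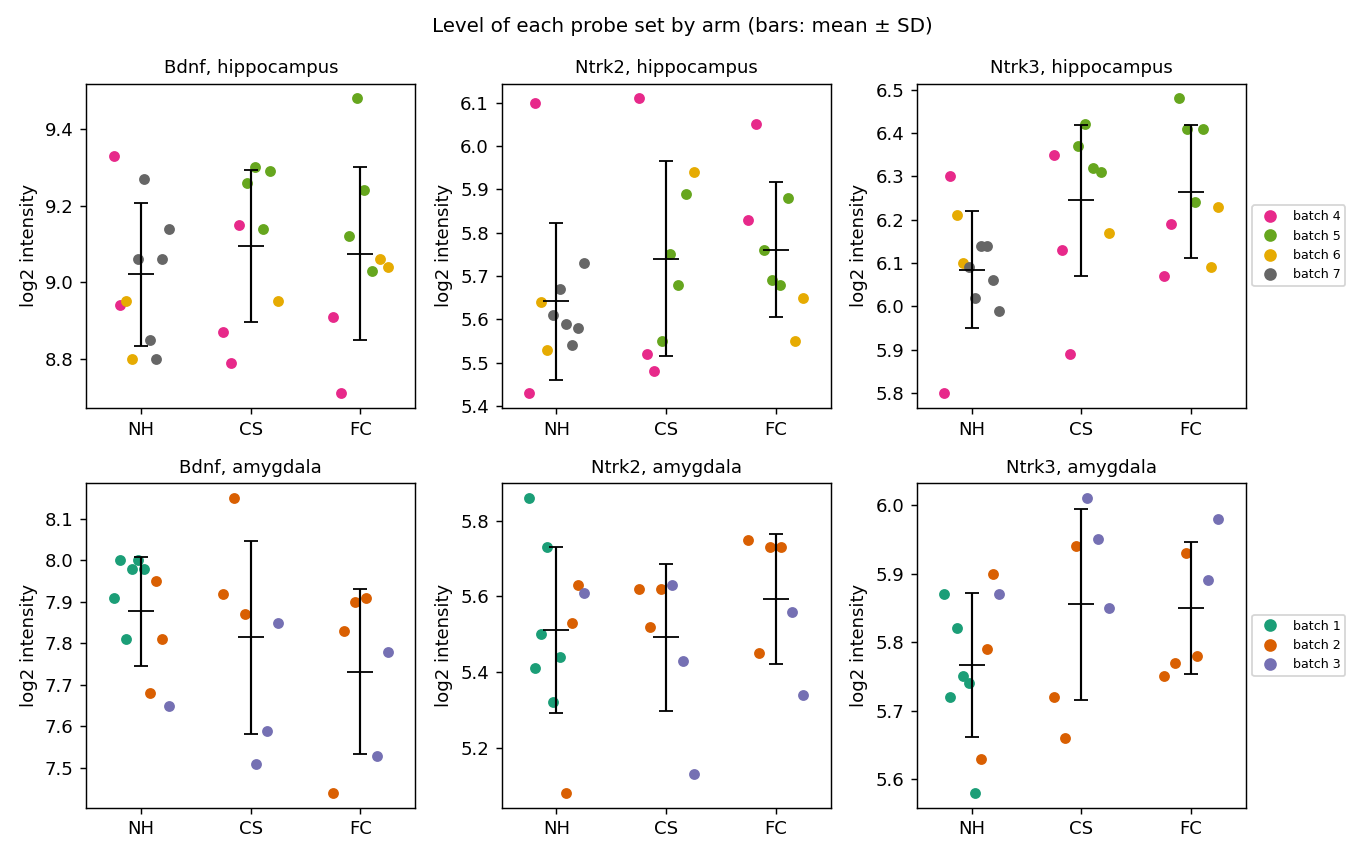
Log2 intensity of the Bdnf, Ntrk2 and Ntrk3 probe sets (vertical axes, each with its own range) in every array by arm, with hippocampus above and amygdala below. Each point is 1 array coloured by processing batch, and bars give the mean ± SD of the arm; the arms overlap in all 6 panels, and in hippocampus the batch 5 arrays run from 9.03 to 9.48 for Bdnf and from 6.24 to 6.48 for Ntrk3.

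Ntrk2, which encodes the Bdnf receptor TrkB, was read by a dim probe set that lay below the intensity filter in hippocampus. There its level ran from 5.43 to 6.10 in NH with a median of 5.6, from 5.48 to 6.11 in CS with a median of 5.71, and from 5.55 to 6.05 in FC with a median of 5.72. All arms overlapped, and NH replicate 111 stood above the other NH arrays at 6.10. In a fit without the filter, CS minus NH was 0.06 ± 0.118 and FC minus NH was 0.10 ± 0.117 (limma, adjusted p = 0.9999 for both). Both depended on single arrays. Without NH replicate 100 of batch 4 they were -0.07 and -0.03, and without NH replicate 111 of that batch they were 0.21 and 0.24. CS minus NH was also -0.038 without CS replicate 75 and -0.0084 without CS replicate 85. In batch 4 CS minus NH was -0.06 and FC minus NH was 0.18. In batch 6 they were 0.35, with 1 CS array, and 0.01. FC minus CS was 0.04 ± 0.0892, with a fold interval from 0.904 to 1.17.

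In amygdala Ntrk2 passed the filter and ran from 5.08 to 5.86 in NH, from 5.13 to 5.63 in CS and from 5.34 to 5.75 in FC, with medians of 5.51, 5.57 and 5.64. The NH range enclosed both others. FC minus NH, the largest difference of any member within a tissue, was 0.14 ± 0.116, with a fold interval from 0.933 to 1.30 (limma, adjusted p = 0.8941). It was 0.25 in batch 2, with 4 FC and 3 NH arrays, and -0.16 in batch 3, which held 1 NH array. CS minus NH was 0.06 ± 0.118 and FC minus CS was 0.08 ± 0.104. NH replicate 28892, at 5.08, was the lowest array, and without it FC minus NH was 0.0026.

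Ntrk3, which encodes the neurotrophin 3 receptor TrkC, had the narrowest intervals. In hippocampus it ran from 5.80 to 6.30 in NH, from 5.89 to 6.42 in CS and from 6.07 to 6.48 in FC, with medians of 6.10, 6.32 and 6.24. The 8 arrays of batch 5, none of them NH, lay between 6.24 and 6.48. Within batches CS minus NH was 0.04 ± 0.0820, FC minus NH was 0.05 ± 0.0810 and FC minus CS was 0.01 ± 0.0618, with fold intervals from 0.914 to 1.15, from 0.923 to 1.16 and from 0.924 to 1.10. In amygdala Ntrk3 ran from 5.58 to 5.90 in NH, from 5.66 to 6.01 in CS and from 5.75 to 5.98 in FC, with medians of 5.77, 5.90 and 5.84, and the arms overlapped. Its differences there were 0.03 ± 0.0661 for CS minus NH, 0.04 ± 0.0649 for FC minus NH and 0.02 ± 0.0586 for FC minus CS.

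**Figure D2:**
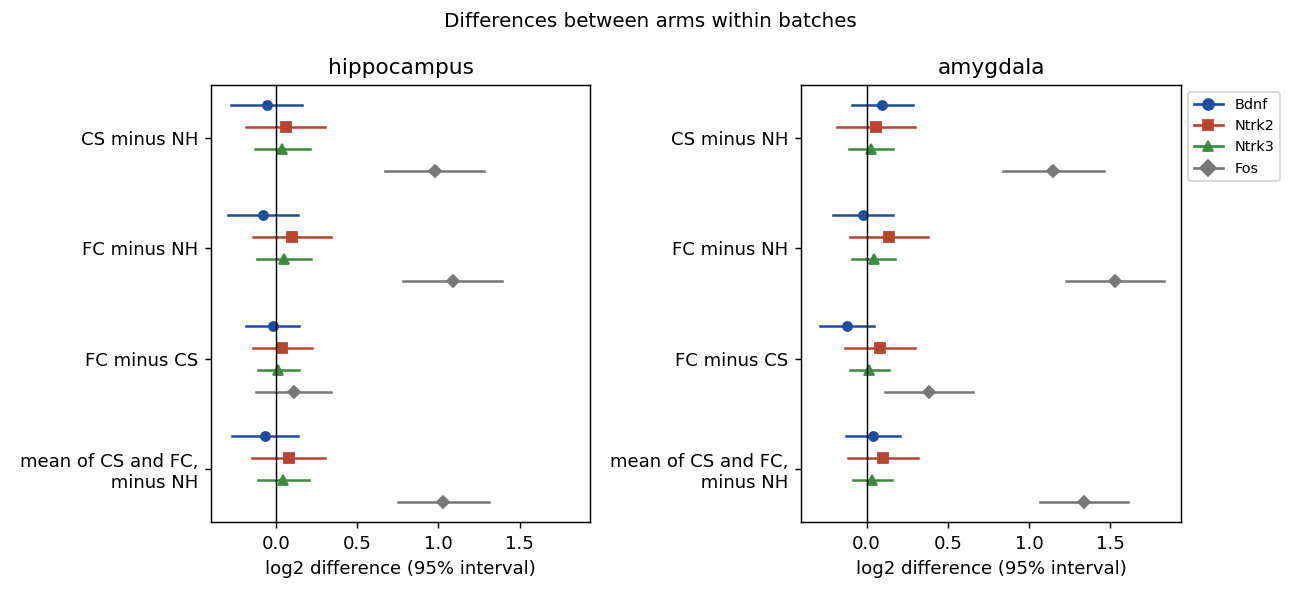
Log2 differences between arms (horizontal axis) with their 95% intervals from limma with batch as a block, for Bdnf, Ntrk2, Ntrk3 and, for scale, Fos, in hippocampus and amygdala. Every interval of the 3 neurotrophin genes crosses 0, whereas Fos lies at 0.98 or higher in each comparison with NH.

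The tissues were compared in 2 ways. The median intensity of an array was 76.5 to 80.8 for hippocampus but 52.3 to 56.1 for amygdala, with no overlap. How the tissues were normalized relative to each other is not given, and levels are set side by side only as the percentile of a probe set within its array, with no test. No batch held arrays of both tissues: amygdala arrays were in batches 1 to 3 and hippocampus arrays in batches 4 to 7. A difference in level between tissues therefore cannot be told apart from one between batches. The mean percentile of Bdnf was 93.5 for hippocampus, from 91.7 to 95.5, and 86.7 for amygdala, from 82.3 to 89.3. Its ranges did not overlap and hippocampus was the higher, as for 2.04% of all probe sets, while 2.34% had amygdala higher without overlap. Ntrk2 lay at 38.5 and 45.7, and Ntrk3 at 48 and 51.1, with ranges that overlapped between the tissues. Fewer cells that express a gene and less of its RNA per cell cannot be told apart in dissected tissue.

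Whether an arm difference itself differed between hippocampus and amygdala was tested in a joint fit that treats the 48 arrays as independent. Of 9 such tests on the members 0 passed, with a lowest adjusted p of 0.9819 in limma, and 0% of all 7242 probe sets passed in any of the 3 comparisons, while 2.53%, 3.42% and 1.37% had an unadjusted p below 0.05 for CS minus NH, FC minus NH and FC minus CS. For Bdnf the CS minus NH difference was lower in hippocampus by an estimate of -0.16 ± 0.146, with an interval from -0.45 to 0.14. For FC minus NH the Bdnf estimate was -0.06 ± 0.144, and for FC minus CS it was 0.10 ± 0.120. With the 9 sets of arrays that may share animals as a random block (consensus correlation 0.131), these estimates were -0.17 ± 0.148, -0.06 ± 0.145 and 0.11 ± 0.118, and 0 of 9 tests passed.

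**Figure D3:**
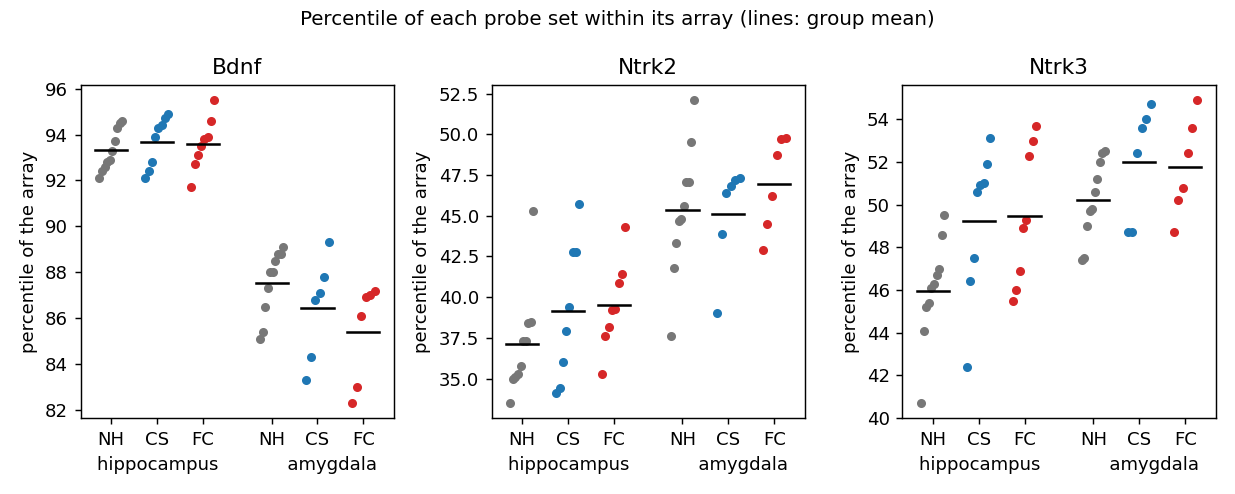
Percentile of the Bdnf, Ntrk2 and Ntrk3 probe sets among all probe sets of the same array (vertical axes, each with its own range), by arm and tissue. Points are arrays placed from low to high within an arm and lines are arm means; the Bdnf arrays of hippocampus run from 91.7 to 95.5 and those of amygdala from 82.3 to 89.3.

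Bdnf varied more between arrays of a kind than most transcripts. After arm and batch were taken out, its standard deviation was 0.172 in hippocampus and 0.150 in amygdala, where the median probe set tested had 0.113 and 0.105. That put Bdnf at percentile 87.6 and 84.8 of the probe sets tested. Ntrk2 stood at percentile 96.6 in amygdala, and Ntrk3 near the middle, at 62.4 in hippocampus and 42.7 in amygdala. The batch term passed for Bdnf in both tissues (limma, adjusted p = 0.0418 in hippocampus and 0.0307 in amygdala). For Ntrk3 it passed in hippocampus (adjusted p = 0.0340) and not in amygdala (adjusted p = 0.115). It also passed for 25% of all probe sets in hippocampus and 26.2% in amygdala, so such a call is common. Batches 1, 5 and 7 lacked at least 1 arm, and what lay behind the batch differences was not tested. Batch and Ntrk2 showed no such call (adjusted p = 0.738 in hippocampus and 0.487 in amygdala). This look at batch was added after the values had been seen.

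Bdnf varied along an axis shared by many transcripts. With batch means subtracted, the first principal component held 37.3% of the variance in hippocampus and 39.3% in amygdala, and Bdnf correlated with it at r = 0.859 over 26 arrays and r = 0.785 over 22 arrays. Of the probe sets tested, 44.9% in hippocampus and 45.9% in amygdala correlated with Bdnf at an absolute r above 0.5. For Ntrk3 these shares were 14.4% and 5.35%, and its own correlation with the component was -0.528 in hippocampus and -0.0449 in amygdala. For Ntrk2 the shares were 9.77% and 4.58%, and its correlations with the component were -0.425 and -0.0711. How many of all probe sets follow the component as closely as Bdnf was not counted. The component correlated with the 3' to 5' control ratios of Actb and Gapdh, a sign of RNA quality, at 0.548 and 0.508 in hippocampus and at 0.238 and 0.133 in amygdala. All these values describe arrays that share their normalization.

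In hippocampus Ntrk3 varied with Ntrk2 and against Bdnf, but these relations passed for r and not for rho after adjustment, and r was nearer to 0 without 3 arrays. Ntrk2 and Ntrk3 correlated at r = 0.667 and rho = 0.491 over 26 hippocampus arrays (permutation within batches, two-sided, p = 0.0165 and 0.0384; adjusted over 6 pairs, 0.0336 and 0.115). Bdnf and Ntrk3 correlated at r = -0.575 and rho = -0.541 (permutation p = 0.0122 and 0.00916; adjusted, 0.0336 and 0.0550). Without the 2 arrays farthest from the median on the first gene of each pair, r was 0.480 and -0.483. In amygdala Ntrk2 and Ntrk3 correlated at r = 0.524 and rho = 0.429 over 22 arrays (permutation p = 0.0168 and 0.0575; adjusted, 0.0336 and 0.115), and at r = 0.351 without the 2 farthest. Bdnf and Ntrk3 were at r = -0.127 there (permutation p = 0.624). Bdnf and Ntrk2 did not pass in either tissue, at r = -0.340 and -0.223 (permutation p = 0.195 and 0.318).

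A sign of RNA quality moved with Ntrk2 in 3 hippocampus arrays. The arrays carry control probe sets for the 3' and the 5' end of Gapdh, and a high log2 ratio of 3' to 5' is a usual sign of RNA, or of labelled RNA, that is short of its 5' end. That ratio lay between 0.36 and 0.485 in CS replicates 105 and 109 and NH replicate 100, all of batch 4. In the other 23 hippocampus arrays it lay between -0.03 and 0.16. For Actb the ratio was 0.962, 1.11 and 1.17 in the same 3 arrays and 0.993 in FC replicate 27. By the Actb ratio they therefore did not all stand apart. Ntrk2 lay between 5.43 and 5.52 in those 3 arrays and between 5.83 and 6.11 in the 4 others of the batch, without overlap. How many of all probe sets separate the same arrays was not counted, so the separation is not shown to be particular to Ntrk2. Ntrk3 (5.80 to 6.13 against 6.07 to 6.35) and Bdnf (8.79 to 9.33 against 8.71 to 8.94) overlapped.

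Over all 26 hippocampus arrays, with batch means subtracted, Ntrk2 and the Gapdh ratio correlated at r = -0.780 and rho = -0.651 (permutation p = 0.00237 and 0.00578; adjusted over 12 relations, 0.0284 and 0.0694). Without the 2 farthest arrays r was -0.670, and without the 3 arrays of high ratio it was -0.270 over 23. The other 11 relations, of Ntrk2, Ntrk3 and Bdnf with the ratios of Gapdh and Actb in both tissues, did not pass after adjustment. Without the 3 arrays, the correlation of Ntrk2 with Ntrk3 was 0.283 and that of Bdnf with Ntrk3 was -0.211. The arm differences of hippocampal Bdnf were then 0.05 for CS minus NH, 0.04 for FC minus NH and -0.01 for FC minus CS, and none passed. Those of Ntrk2 were 0.09, 0.01 and -0.08, and those of Ntrk3 were -0.01, -0.04 and -0.03. With the Actb and Gapdh ratios as covariates in the fit, hippocampal Bdnf was at -0.07 for CS minus NH, -0.01 for FC minus NH and 0.06 for FC minus CS, and no member passed.

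**Figure D4:**
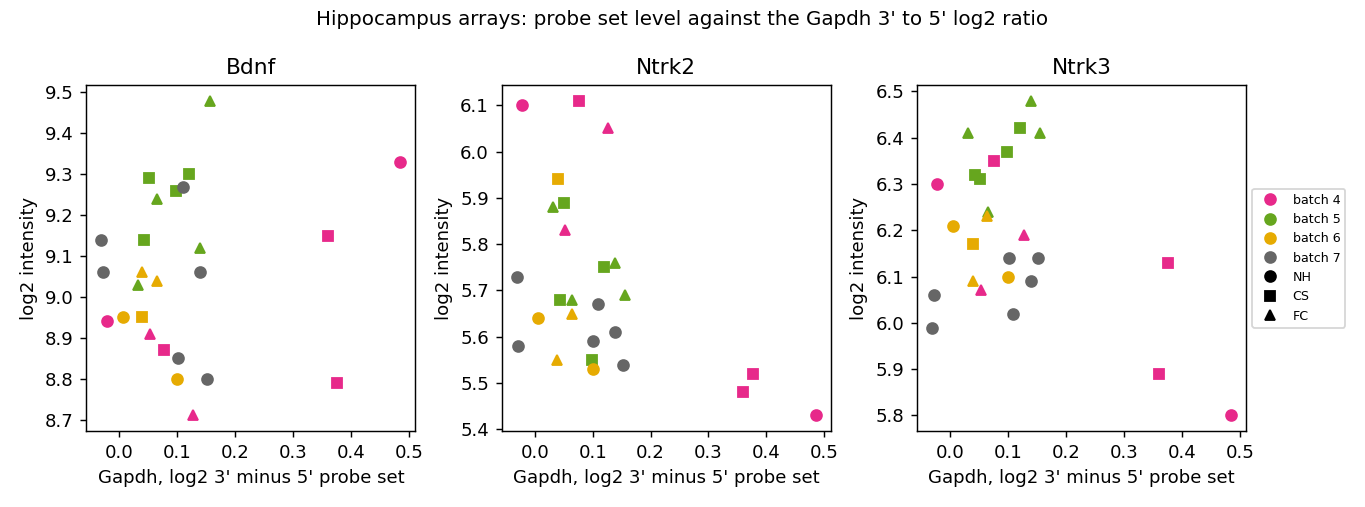
Log2 intensity of Bdnf, Ntrk2 and Ntrk3 (vertical axes, each with its own range) against the log2 ratio of the 3' to the 5' Gapdh control probe set (horizontal axis) in the 26 hippocampus arrays, coloured by batch and shaped by arm. The 3 arrays at a ratio of 0.36 or more all belong to batch 4, and there Ntrk2 is at 5.43 to 5.52.

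In the wider neurotrophin pathway no gene passed either. A list of further ligands and receptors, sorting receptors, proteases that cleave the precursors, adaptors, kinases, regulators of Bdnf and responsive genes had 48 other genes with a probe set, none of them another neurotrophin or Trk receptor. After the filter 44 probe sets of 37 genes were tested in hippocampus and 44 of 36 genes in amygdala. In limma 0 passed in any of the 8 comparisons, where 0% to 0.0939% of all probe sets did. At an unadjusted p below 0.05 there were 1, 1, 3 and 0 of 44 in hippocampus, in the order used for the markers. Of all probe sets, 1.45%, 2.27%, 0.765% and 2.07% had such a p there. The counts in amygdala were 4, 4, 0 and 5 of 44, beside 3.92%, 5.15%, 1.23% and 5.85% of all probe sets. The list median was -0.00093, 0.02 and 0.02 in hippocampus for CS minus NH, FC minus NH and FC minus CS, and 0.01, 0.03 and 0.0057 in amygdala. Over all probe sets tested, the largest of these medians was 0.01.

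Among processing enzymes, Plat, the tissue plasminogen activator whose product plasmin can cleave the Bdnf precursor, had the smallest p of the list in each amygdala comparison with NH. It differed by 0.17 ± 0.0601 for CS minus NH and by 0.17 ± 0.0590 for FC minus NH (limma, adjusted p = 0.942 and 0.894). In hippocampus Plat differed by 0.11 ± 0.0449 for FC minus CS. Furin, the protease of the secretory pathway that cleaves neurotrophin precursors, differed by -0.07 in amygdala CS minus NH. None of these passed over all probe sets.

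Among adaptors, Grb2, which links activated Trk receptors to Ras, differed by 0.12 ± 0.0572 in hippocampus CS minus NH and by -0.09 ± 0.0431 in FC minus CS. In amygdala FC minus CS it differed by 0.20 ± 0.116. Traf6, a ubiquitin ligase that binds p75, differed by -0.15 ± 0.0629 in amygdala CS minus NH and by -0.08 in FC minus NH, and its 2 other probe sets by 0.02 and 0.01 and by 0.06 and -0.09. The Trk adaptor Sh2b1 differed by 0.09 in hippocampus FC minus NH. The kinase Irak1 differed by -0.07 in hippocampus FC minus CS and the Ras activator Sos1 by -0.08 in amygdala FC minus CS. The 9 adaptor genes tested in hippocampus had a median of 0.03 in CS minus NH and 0.04 in FC minus NH, and the 10 tested in amygdala medians of 0.0042 and 0.04. The lowest adjusted p of the adaptors named was 0.894.

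Among kinases, Pik3ca, the catalytic subunit of phosphoinositide 3-kinase, differed by 0.13 ± 0.0706 in hippocampus CS minus NH, with -0.01 for its other probe set. Akt1, the kinase downstream of it, differed by 0.11 ± 0.0537 in amygdala FC minus CS, and the ERK kinase Map2k2 by -0.08 in amygdala FC minus NH. Among regulators of Bdnf transcription, Mef2c, an activity-regulated transcription factor, differed by 0.24 ± 0.0989 in hippocampus FC minus NH and by 0.16 ± 0.0755 in FC minus CS, where its 3 other probe sets were at 0.13, 0.08 and 0.07 and at 0.03, -0.01 and -0.09. Bhlhe40, a basic helix-loop-helix repressor, differed by 0.28 ± 0.101 in amygdala FC minus NH.

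Of the remaining regulators, the CREB coactivator Crebbp differed by 0.16 ± 0.0606 in amygdala CS minus NH and by -0.08 in FC minus CS. Usf1, which binds E-boxes, differed by -0.11 ± 0.0719 in hippocampus CS minus NH and by -0.11 ± 0.0710 in FC minus NH, with -0.05 and -0.02 for its other probe set, and Mef2d by -0.13 in hippocampus FC minus NH. Cort, the neuropeptide cortistatin of the responsive genes, differed by -0.08 in hippocampus CS minus NH. The lowest adjusted p among the kinases, regulators and responsive genes named here was 0.894. For the mean of CS and FC minus NH the same rule named Mef2c (0.16), Pik3ca (0.10), Usf1 (-0.11) and Furin (-0.08) in hippocampus and Plat (0.17), Bhlhe40 (0.25), Traf6 (-0.12) and Furin (-0.06) in amygdala, with a lowest adjusted p of 0.825.

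The transcripts most like Bdnf across arrays belonged to no neurotrophin list. With batch means subtracted, the highest correlations with Bdnf among 6693 probe sets over 26 hippocampus arrays were those of Chmp4b (r = 0.901), Sypl (0.894), Zfp36l1 (0.891), Dstn (0.886) and Nr2f1 (0.886). Over 22 amygdala arrays they were those of Cops4 (r = 0.877), Copg1 (0.865), Seh1l (0.857), Atp6v1d (0.856) and Anp32e (0.855). No gene stood among the first 5 in both tissues. For Ntrk3 the leading genes were Atp2b2 (r = 0.853) and Tollip (0.842) in hippocampus and Clip2 (0.812) and Timp2 (0.784) in amygdala, and for Ntrk2 in amygdala the kinesin heavy chains Kif5a (0.853) and Kif5c (0.824). These values share the arrays, the normalization and the common axis described above.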

How the data were processed

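The authors deposited linear intensity values, made with RMA per the submitters' processing notes. The version is not given in the sources used here. RMA makes arrays alike, which hides any shift common to most genes. Of 12488 probe sets, 66 array controls were left out, and 10833 of the rest name 1 gene. Nothing was added before log2. A filter per tissue dropped the dimmest 40% by mean level and kept 7453. Each tissue was fitted with limma 3.58.1 in R 4.3.3, with arm and batch (from the labels) as fixed terms and two-sided tests, and arm differences between tissues in a joint fit of 48 arrays. The fits were also run on simulated data whose noise was independent between probe sets, without the shared axis of the real arrays. That run does not give the error rates of these data. Permutation tests drew 100000 permutations within batches. Members below the filter were fitted without it. Pathway genes were named as the 2 with the smallest p in each direction of each comparison, and likeness by the highest correlations (5 for Bdnf, 2 for the others). Marker lists covered hippocampal neurons, amygdala, striatum, basal forebrain cholinergic neurons, astrocytes, oligodendrocytes, microglia, vessels, and meninges with choroid plexus. Members and lists were chosen with earlier results of these data known. The number of arrays limits the precision.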

Additional observations from a re-analysis of the deposited data

Results flagged for a closer look

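Ntrk2 in hippocampus NH replicate 111, of batch 4, stood apart at a log2 intensity of 6.10, with the nearest NH array at 5.73. The gap was 0.542 of the range of the 10 NH arrays, above Dixon's 95% critical value for a group of that size. It was the only such array in 18 groups checked, and chance gives about 1 in 20. Within batch 4 it did not stand apart, with CS replicate 85 at 6.11 and FC replicate 113 at 6.05. The other NH array of that batch, replicate 100 at 5.43, is 1 of the 3 arrays of high Gapdh ratio, and the remaining NH arrays are of batches 6 and 7. The probe set is dim and lay below the intensity filter in hippocampus.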

How the results depend on the processing

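The count of members past the threshold was 0 in each of the 11 comparisons under every alternative run, including with each array of a batch of several arms left out (0 to 0). The 12 NH arrays of batches 1 and 7, which held NH alone, were not left out. Of single differences, 63 values turned sign under another setting and none of these passed; the cause was not tested. Their log2 values follow. With no batch term, values in hippocampus were Bdnf 0.0749 for CS minus NH, Bdnf 0.0528 for FC minus NH and Bdnf 0.0639 for mean of CS and FC minus NH. With no batch term, values in amygdala were Bdnf -0.0618 and Ntrk2 -0.0206 for CS minus NH, Ntrk3 -0.00549 for FC minus CS and Bdnf -0.105 for mean of CS and FC minus NH. With no batch term, values for hippocampus minus amygdala were Bdnf 0.137 for CS minus NH, Bdnf 0.201 and Ntrk2 0.0405 for FC minus NH and Ntrk3 0.0253 for FC minus CS. With batch as a random block, values in hippocampus were Bdnf 0.0156 for CS minus NH and Bdnf 0.00386 for mean of CS and FC minus NH. With batch as a random block, values in amygdala were Bdnf -0.0331 for mean of CS and FC minus NH. With array weights, values in hippocampus were Bdnf 0.0601, Ntrk2 -0.0211 and Ntrk3 -0.025 for CS minus NH, Bdnf 0.0279, Ntrk2 -0.000981 and Ntrk3 -0.0372 for FC minus NH, Ntrk3 -0.0122 for FC minus CS and Bdnf 0.044, Ntrk2 -0.011 and Ntrk3 -0.0311 for mean of CS and FC minus NH. With array weights, values in amygdala were Ntrk2 -0.0492 for CS minus NH and Ntrk3 -0.0169 for FC minus CS. With array weights, values for hippocampus minus amygdala were Bdnf 0.0143 and Ntrk3 -0.0956 for CS minus NH, Bdnf 0.0433 and Ntrk3 -0.0922 for FC minus NH and Ntrk3 0.00333 for FC minus CS. In batch 4 alone, values in hippocampus were Ntrk2 -0.057 for CS minus NH. In batch 6 alone, values in hippocampus were Bdnf 0.0766 for CS minus NH, Bdnf 0.172 for FC minus NH, Bdnf 0.0954, Ntrk2 -0.337 and Ntrk3 -0.00416 for FC minus CS and Bdnf 0.124 for mean of CS and FC minus NH. With the 3' to 5' ratios of Actb and Gapdh as covariates, values in hippocampus were Bdnf 0.0605, Ntrk2 -0.0324 and Ntrk3 -0.0232 for FC minus CS. Without the 3 arrays of high Gapdh ratio, values in hippocampus were Bdnf 0.053 and Ntrk3 -0.0147 for CS minus NH, Bdnf 0.042 and Ntrk3 -0.0424 for FC minus NH, Ntrk2 -0.0786 and Ntrk3 -0.0277 for FC minus CS and Bdnf 0.0475 and Ntrk3 -0.0286 for mean of CS and FC minus NH. Without the 3 arrays of high Gapdh ratio, values for hippocampus minus amygdala were Ntrk3 -0.0407 for CS minus NH and Bdnf 0.066 and Ntrk3 -0.0853 for FC minus NH. In batch 3 alone, values in amygdala were Ntrk2 -0.216 for CS minus NH, Bdnf 0.00337 and Ntrk2 -0.16 for FC minus NH, Bdnf 0.00232 and Ntrk3 -0.00243 for FC minus CS and Ntrk2 -0.188 for mean of CS and FC minus NH. With arrays centred on their median, values for hippocampus minus amygdala were Ntrk2 -0.00668 for CS minus NH and Ntrk3 -0.00725 for FC minus NH. With quantile normalization, values for hippocampus minus amygdala were Ntrk2 -0.0151 for CS minus NH and Ntrk3 -0.00967 for FC minus NH. With arrays that may share animals as a random replicate block, a pairing read from their numbers and chosen after the data were seen, values for hippocampus minus amygdala were Ntrk2 -0.00195 for CS minus NH.

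With each of those arrays left out in turn, the differences that turned sign ran over these ranges. Values in hippocampus were Bdnf -0.123 to 0.0814, Ntrk2 -0.0743 to 0.213 and Ntrk3 -0.0795 to 0.138 for CS minus NH; Bdnf -0.151 to 0.0487, Ntrk2 -0.0261 to 0.239 and Ntrk3 -0.0577 to 0.143 for FC minus NH; Bdnf -0.0632 to 0.02, Ntrk2 -0.0064 to 0.102 and Ntrk3 -0.0188 to 0.0466 for FC minus CS; Bdnf -0.137 to 0.065, Ntrk2 -0.0502 to 0.226 and Ntrk3 -0.0686 to 0.14 for mean of CS and FC minus NH. Values in amygdala were Ntrk2 -0.0718 to 0.179 and Ntrk3 -0.0162 to 0.0698 for CS minus NH; Bdnf -0.0719 to 0.0549 and Ntrk3 -0.00136 to 0.0889 for FC minus NH; Ntrk3 -0.0156 to 0.0551 for FC minus CS; Bdnf -0.00981 to 0.0816, Ntrk2 -0.0346 to 0.212 and Ntrk3 -0.00876 to 0.0794 for mean of CS and FC minus NH. Values for hippocampus minus amygdala were Ntrk2 -0.132 to 0.155 and Ntrk3 -0.105 to 0.112 for CS minus NH; Bdnf -0.135 to 0.0727, Ntrk2 -0.165 to 0.0997 and Ntrk3 -0.101 to 0.0998 for FC minus NH; Ntrk2 -0.0909 to 0.0213 and Ntrk3 -0.0425 to 0.0297 for FC minus CS. NH replicate 100 turned the hippocampal differences from NH of all 3 members, and NH replicate 28892 turned Ntrk2 and Ntrk3 in amygdala CS minus NH.

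The settings with covariates or without 3 arrays were chosen after the data were seen. With 60% of probe sets left out, Ntrk2 and Ntrk3 were not tested. The percentile differences between tissues, 6.85 for Bdnf, -7.23 for Ntrk2 and -3.08 for Ntrk3, were 7.23, -7.25 and -3.14 among probe sets naming 1 gene. Within a tissue, no paired analysis was possible because the arms share no replicate number.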
